A study of Mus musculus with 51 samples.

Results

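The granular layer of the dentate gyrus (DG) was compared between rTg4510 and tTA mice, using every array that the labels assign to these genotypes and this subfield. These are 11 arrays of the 51 in the series, 6 of rTg4510 and 5 of tTA mice, each made from 1 mouse. All mice were labelled female and 4.5 months old. rTg4510 mice carry a pair of transgenes, human tau with the P301L mutation behind a tetracycline operon-responsive element, and the tetracycline-controlled transactivator (tTA) under the CaMKIIα promoter, which came from parents of another inbred strain than the tau line, so that the transgenic tau is made in forebrain excitatory neurons. tTA littermates carry the transactivator alone, and double negative (DN) littermates carry neither transgene. The 6 DN arrays of the DG entered the fit for its estimate of spread and are given below as a further control. Cell layers were cut from frozen sections by laser microdissection, and the amplified RNA was hybridized to Affymetrix HT-MG-430A arrays. A signal is the deposited log2 RMA value of a probe set, and a difference is the mean of the rTg4510 mice minus the mean of the tTA mice on that log2 scale.

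The granular layer holds the cell bodies of granule cells, excitatory neurons that receive the input from the entorhinal cortex and send mossy fibers to CA3. New granule cells are born throughout life at the inner edge of the layer. Tau is a microtubule-associated protein of axons. In rTg4510 mice the mutant protein is hyperphosphorylated and aggregates, and glial activation and loss of forebrain neurons follow with age. Dissected layers also contain processes of astrocytes, microglia, blood vessels and myelinated axons that run through or beside the granule cells. In such bulk samples, fewer cells of a type and less RNA per cell cannot be told apart.

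Some arrays went against their labels. The mouse Prnp gene encodes the prion protein, and its sequence is part of the vector that carries the tau transgene, so that its probe sets check for the transgene. By the dimmer of its probe sets, the Prnp signal was 9.76, 9.92, 7.34, 9.73, 10.26 and 10.11 in rTg4510 mice 1 to 6, and 8.19, 8.22, 7.91, 7.82 and 7.9 in tTA mice 1 to 5. rTg4510 mouse 3 therefore lay below every tTA mouse. By the brighter probe set, rTg4510 mouse 3 was at 9.07, whereas the other rTg4510 mice ranged from 10.19 to 10.66 and the tTA mice from 9.36 to 9.55. The same array had almost no signal of Xist, the RNA that coats the inactive X chromosome of females. Its Xist signal was 2.5 by the brightest of its probe sets, against 9.48 to 10.12 in the other rTg4510 mice and 9.09 to 10.2 in tTA mice. On all DG arrays, 6 probe sets of Y-linked genes had signals of at most 3.05. The CA1 and CA3 arrays of rTg4510 mouse 3 had Prnp signals of 10.11 and 9.69 and Xist signals of 7.85 and 8.96, so that the conflict lay in the DG array of this mouse. Among the DN mice, the DG arrays of mouse 4 and mouse 5 had Prnp signals of 9.98 and 9.93, against 7.46 to 8.02 in the other 4. In CA1 and CA3, DN mouse 4 was again high, at 10.44 and 9.65, whereas DN mouse 5 was at 8.12 and 8.55 for Prnp and at 2.49 and 4.06 for Xist. The DG array of DN mouse 5 had a Xist signal of 9.91. It was thus high for both genes where the CA1 and CA3 arrays of its mouse were low, the reverse of rTg4510 mouse 3. DN mice 4 and 5 were kept in the DN means and fits below unless stated. No sample was moved to another group, and results are given with and without rTg4510 mouse 3.

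**Figure D1:**
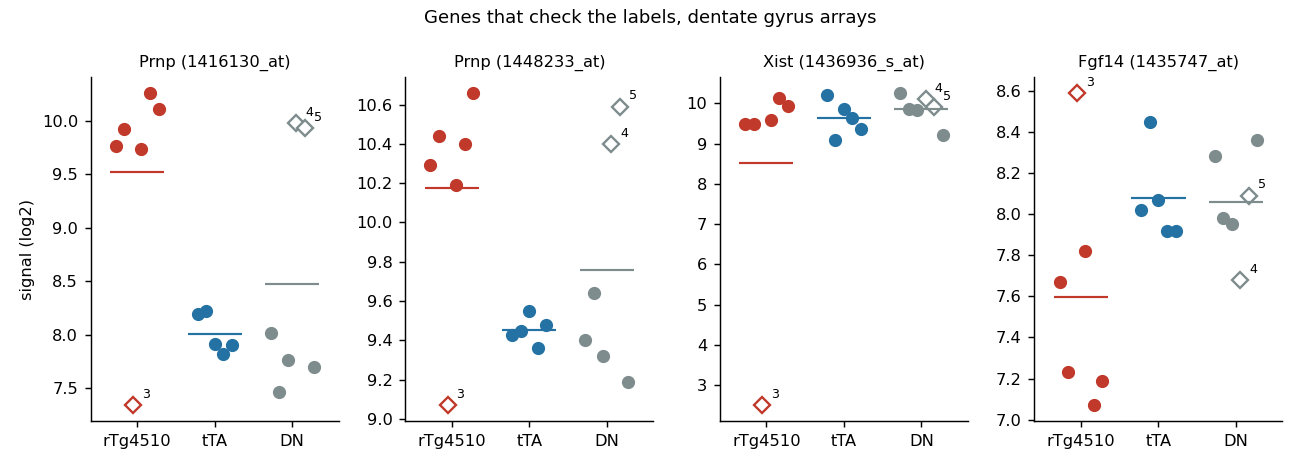
Log2 signal of Prnp by both of its probe sets, of Xist and of Fgf14 on every DG array, by genotype. Each point is a mouse, horizontal lines are group means, and open diamonds mark rTg4510 mouse 3 and DN mice 4 and 5. rTg4510 mouse 3 is lowest for Prnp and Xist and highest for Fgf14.

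No probe set could be told apart between rTg4510 and tTA mice in the DG at 4.5 months. Of 22626 probe sets, 0 passed an adjusted p of 0.05 in limma (0%), and the smallest adjusted p was 0.54. Without rTg4510 mouse 3, 0 passed as well (0%), with a smallest adjusted p of 0.453. At an unadjusted p under 0.05, limma found 575 probe sets higher and 718 lower in rTg4510 mice, 1293 in all, and 1451 without rTg4510 mouse 3. Fisher's LSD, the comparison of the study's methods, also called 0 probe sets after adjustment, with 1124 before it on linear signals and 1242 on log2 signals. Differences were balanced: with 11962 genes read by their brightest probe sets, 5956 genes lay higher and 6006 lower, the median difference was -0.000917 and the quartiles were -0.171 and 0.167. A difference beyond 1 in size was found for 462 probe sets. The median standard error was 0.256. All values below are therefore those of genes that did not pass, and they are given as levels and differences with their spread.

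**Figure D2:**
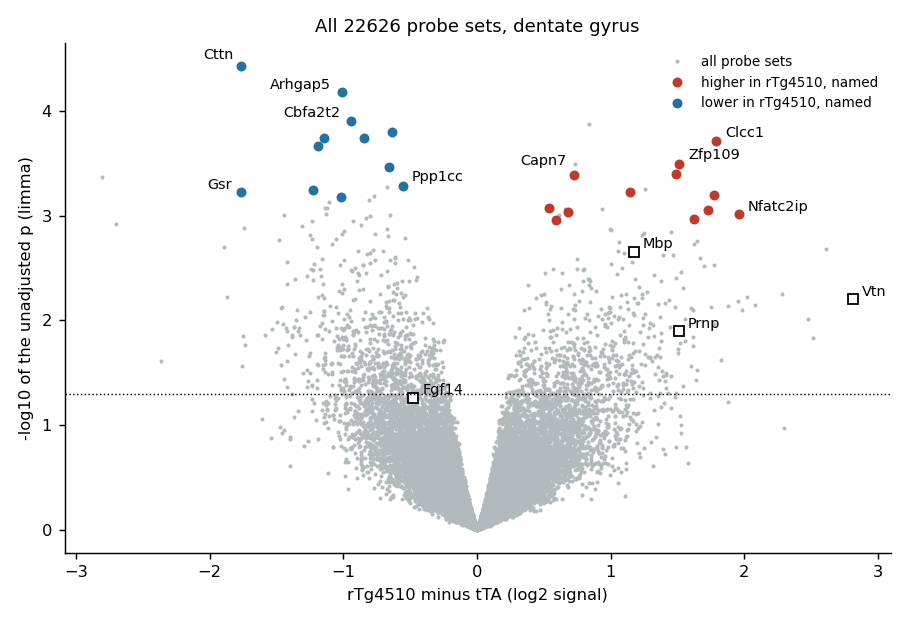
Difference between rTg4510 and tTA mice in log2 signal (x axis) against -log10 of the unadjusted limma p (y axis) for 22626 probe sets of the DG. Colored points are the 12 higher and 12 lower named probe sets with the smallest p, open squares are Prnp, Fgf14, Mbp and Vtn, and the dotted line is an unadjusted p of 0.05. No probe set reached an adjusted p of 0.05, and differences spread evenly to both sides of 0.

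The transgenes and their insertion sites came first. Prnp lay 1.51 (SE 0.54) higher in rTg4510 mice by the dimmer probe set, with an adjusted p of 0.789 in limma, and 0.72 (SE 0.29) higher by the brighter. Without rTg4510 mouse 3 the differences were 1.95 and 0.94 and the groups no longer overlapped, which is a description, since Prnp chose the array that was left out. A fit without rTg4510 mouse 3 and DN mice 4 and 5 called both Prnp probe sets and no other, again as a description. Fgf14, which encodes a modulator of neuronal sodium channels, lies at the site where the tau transgene inserted. Its signal by the brighter probe set was 7.67, 7.23, 8.59, 7.82, 7.07 and 7.19 in rTg4510 mice and 8.02, 8.45, 8.07, 7.92 and 7.92 in tTA mice. All rTg4510 mice but mouse 3 were below all tTA mice. The Fgf14 difference was -0.48 (SE 0.23; adjusted p = 0.873, limma) with that mouse and -0.67 (SE 0.18; adjusted p = 0.503) without it. The dimmer Fgf14 probe set gave -0.36 and -0.53. With the 3′ minus 5′ signal of Gapdh, a measure of RNA quality, as a covariate, the Fgf14 differences were -0.188 and -0.054. In CA1 and CA3, Fgf14 by the brighter probe set lay 0.43 and 0.59 lower in rTg4510 mice.

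Probe sets for Mapt are directed at the mouse tau gene and gave no single direction. The Mapt difference was 0.44, -0.48 and 0.91 by its 3 probe sets, with SEs of 0.49, 0.22 and 0.54. Camk2a, whose promoter drives the transactivator and whose kinase is abundant in excitatory neurons, had a mean signal of 10.6 in rTg4510 and 10.3 in tTA mice, a difference of 0.23 (SE 0.14). The tTA transgene inserted into a cluster of genes and is present in both genotypes compared. Of that cluster, Ptprn2 differed by 0.57 (SE 0.35), Ncapg2 by -0.04 and Vipr2 by -0.04. Ncapg2 and Vipr2 signals were all at or below 2.74, under the medians of the arrays.

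Among probe sets lower in rTg4510 mice, the smallest p belonged to Cttn, which encodes the actin-binding protein cortactin. The Cttn signal was 3.28, 3.73, 3.02, 2.67, 3.76 and 2.36 in rTg4510 mice and 5.03, 4.2, 4.77, 6.03 and 4.47 in tTA mice, with a DN mean of 3.8. The groups did not overlap, and the Cttn difference was -1.76 (SE 0.32; adjusted p = 0.54, limma). It was -1.74 without rTg4510 mouse 3. The mean Cttn signal of the rTg4510 mice, 3.14, was near the medians of the arrays. Arhgap5, a GTPase-activating protein, had signals of 5.63, 5.48, 5.68, 5.54, 5.29 and 6.12 in rTg4510 mice and 6.2, 6.92, 6.26, 6.84 and 6.95 in tTA mice. These groups did not overlap either, with a difference of -1.01 (SE 0.19; adjusted p = 0.54), and the DN mean of Arhgap5 was 5.84, within the range of the rTg4510 mice. Ugcg, which makes glucosylceramide, the first step to complex glycosphingolipids, ranged from 6.29 to 6.91 in rTg4510 and from 7.28 to 7.76 in tTA mice and had a DN mean of 6.69. Its difference was -0.85 (SE 0.18). Cbfa2t2, a transcriptional corepressor, ranged from 3.99 to 4.95 in rTg4510 and from 5.22 to 5.6 in tTA mice, with a difference of -0.94 (SE 0.19) and a DN mean of 5.27.

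The other 8 of the 12 lower probe sets were of Ptges3, Prdx4, Cdh9, Ccnl2, Ppp1cc, Phb, Gsr and Echdc1. Ptges3, or p23, is a cochaperone of Hsp90, and it lay 0.63 lower in rTg4510 mice (SE 0.13), between 7.93 and 8.31 against 8.52 to 9.1. Prdx4, a peroxiredoxin of the endoplasmic reticulum, differed by -1.14. Gsr, which regenerates reduced glutathione, differed by -1.77, and Phb, the mitochondrial prohibitin, by -1.23. Prdx4 and Gsr had means of 2.15 and 2.3 in rTg4510 mice, below the medians of the arrays, which ran from 2.97 to 3.12. Cdh9, a cadherin of synapses between granule cells and CA3, differed by -1.19 (SE 0.25) and ranged from 4.83 to 6.54 in rTg4510 and from 6.4 to 7.47 in tTA mice. Ppp1cc, a catalytic subunit of protein phosphatase 1, differed by -0.55, Ccnl2, a cyclin tied to splicing, by -0.66, and Echdc1, a metabolite-repair enzyme, by -1.01. Groups did not overlap for 7 of the 12 lower and 4 of the 12 higher probe sets. The background of this count is that 0.276% of all genes were lower without overlap and 0.176% higher, which makes 33 and 21 of 11962 genes; these probe sets were picked by the same contrast.

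**Figure D3:**
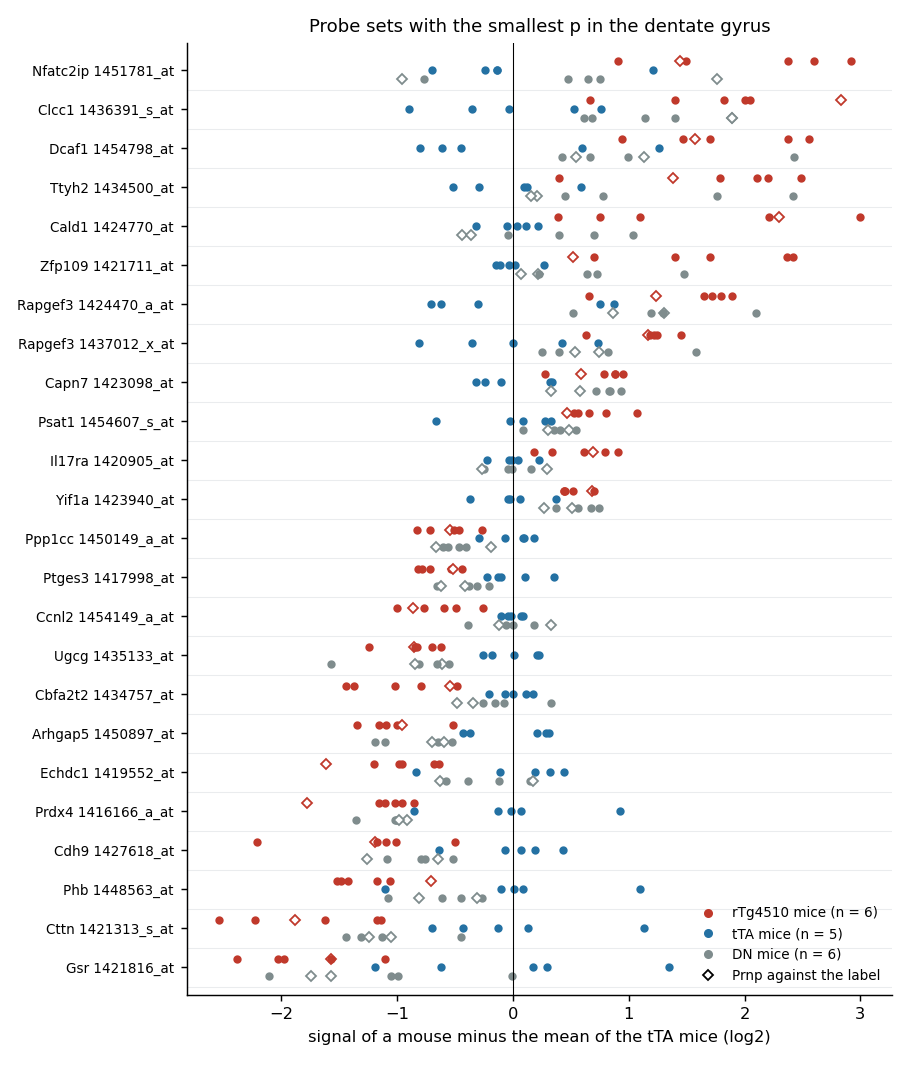
Signal of each mouse minus the mean of the tTA mice (x axis, log2) for the 24 probe sets with the smallest p (y axis), with rTg4510, tTA and DN mice as colored points and open diamonds for the arrays whose Prnp signal went against the label. Cttn, Arhgap5, Ugcg and Cbfa2t2 show rTg4510 mice apart from tTA mice, while DN mice often lie among the rTg4510 mice.

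Among probe sets higher in rTg4510 mice, the smallest p belonged to Clcc1, a chloride channel of the endoplasmic reticulum. Its signal was 4.86, 5.46, 6.29, 5.28, 4.12 and 5.5 in rTg4510 mice and 3.1, 4.22, 3.42, 2.56 and 3.98 in tTA mice. Only rTg4510 mouse 5 fell within the range of the tTA mice. The Clcc1 difference was 1.79 (SE 0.37; adjusted p = 0.54, limma), and 1.58 without rTg4510 mouse 3. The DN mean of Clcc1 was 4.73, nearer to the rTg4510 mean of 5.25 than to the tTA mean of 3.46. Zfp109, a zinc finger protein, was at 4.56, 4.26, 3.38, 5.23, 3.56 and 5.28 in rTg4510 mice and 2.83, 2.72, 2.88, 3.13 and 2.75 in tTA mice. Every rTg4510 mouse was above every tTA mouse for Zfp109, with a difference of 1.51 (SE 0.33; adjusted p = 0.576) that was 1.71 without mouse 3. Rapgef3, or Epac1, is a guanine nucleotide exchange factor for Rap that cAMP activates directly, and 2 of its 3 probe sets were among the 12. By the brighter of these, Rapgef3 was at 7.67, 7.74, 7.26, 7.92, 6.68 and 7.82 in rTg4510 mice and 6.78, 5.32, 5.4, 6.9 and 5.72 in tTA mice, a difference of 1.49 (SE 0.34), and by the dimmer the difference was 1.15 (SE 0.27). Mouse 5 was the lowest rTg4510 mouse by both. The DN mean of Rapgef3 by the brighter probe set was 7.23, and in CA1 and CA3 this probe set differed by -1.18 and -0.32.

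The other higher probe sets were of Nfatc2ip, Dcaf1, Ttyh2, Cald1, Capn7, Psat1, Il17ra and Yif1a. Dcaf1, a substrate receptor of cullin-RING ubiquitin ligases, differed by 1.77 (SE 0.42), Nfatc2ip by 1.96 (SE 0.49) and Ttyh2, a member of the tweety family of channel-like membrane proteins, by 1.73 (SE 0.43). Nfatc2ip and Dcaf1 had means of 2.4 and 2.91 in tTA mice, below the medians of the arrays. The tTA signals of Zfp109 were near or below those medians. Psat1, an enzyme of serine synthesis that astrocytes express strongly, had signals of 7.37 to 7.98 in rTg4510 and 6.24 to 7.23 in tTA mice, without overlap, and differed by 0.68 (SE 0.17). Cald1 encodes the actin-binding caldesmon, and its probe sets disagreed. Cald1 by the dimmer probe set differed by 1.62 (SE 0.41), without overlap, whereas by the brighter it differed by -0.37 (SE 0.25). Capn7, Il17ra and Yif1a differed by 0.73, 0.59 and 0.54. The adjusted p of the 24 named probe sets ranged from 0.54 to 0.577 with all arrays and from 0.494 to 0.567 without rTg4510 mouse 3. For 16 of the 24, 8 higher and 8 lower, the DN mean was nearer to the rTg4510 than to the tTA mean. These probe sets were picked by the contrast of rTg4510 with tTA mice, and the share over all probe sets is not given here. The count is therefore no result about either genotype. The DN means also include the DN mice whose Prnp signal in the DG went against the label.

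When rTg4510 mouse 3 was left out, 8 further probe sets came among the 16 with the smallest p. Higher were Prnp, Slu7, Lrp4 and Pdgfc, and lower were Suz12, Zfp24, Vopp1 and Mknk1. Suz12 is a subunit of Polycomb repressive complex 2, which methylates histone H3. Suz12 was at 6.32, 6.33, 7.49, 6.37, 6.64 and 6.52 in rTg4510 mice and 6.88, 7.7, 7.36, 7.53 and 6.96 in tTA mice. The mouse left out was the highest rTg4510 mouse, and the Suz12 difference moved from -0.67 to -0.85 (SE 0.18). The difference of Zfp24 moved from -0.83 to -1.01, that of Vopp1 from -0.68 to -0.77 and that of Mknk1, a kinase that phosphorylates a translation initiation factor, from -0.93 to -1.05. Pdgfc, a growth factor of the platelet-derived family, moved from 1.6 to 2.01, Lrp4, the agrin receptor, from 0.98 to 1.23, and Slu7, a splicing factor, from 1.24 to 1.39. The adjusted p of these 8 without rTg4510 mouse 3 was 0.494 in limma. Genes without overlap between the groups then numbered 53 higher and 61 lower, 0.443% and 0.51% of all genes.

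Some genes were measured by several probe sets. At an unadjusted p under 0.05, 49 genes had 2 or more probe sets in the same direction and none in the other, 24 higher and 25 lower. Probe sets of these genes that did not reach that p were not counted and could lie in either direction. Mbp and Suz12, for instance, each had 2 of 6 probe sets under it. The higher genes included Mbp of myelin, Vtn and Slc2a1 of the vessel wall, the hemoglobin genes Hba-a1 and Hbb-b2, Mgll, Ddr1, Pdgfc, Rapgef3 and Prnp. Among the lower genes were Khdrbs1, an RNA-binding splicing regulator, with 3 of 7, Twsg1, a secreted modulator of bone morphogenetic proteins, with 3 of 4, Arhgap5, Prdx4, Suz12, and Rnf2, the ligase of the other Polycomb complex. Cul3, Rlim and Znrf2 encode parts of ubiquitin ligases, and Xpo1 the main nuclear export receptor. These are counts of agreeing signals, and none of the probe sets passed the adjusted threshold. Of all 22626 probe sets, 575 were higher and 718 lower at this unadjusted p. Probe sets of a gene were read on the same arrays and are not independent of each other. How many genes would agree without a genotype difference was not tested.

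The lists of oligodendrocyte, astrocyte and blood vessel markers lay mostly to one side. Of 17 measured oligodendrocyte markers, 16 lay higher and 1 lower in rTg4510 mice, and their median difference was 0.76, beside -0.000917 over all genes. At an unadjusted p under 0.05, 4 were higher, against 2.64% of all genes. Mbp, the basic protein of myelin, had signals of 10.25, 9.84, 9.12, 10.83, 9.13 and 9.37 in rTg4510 mice and 8.47, 8.3, 8.74, 8.38 and 9.03 in tTA mice. All rTg4510 mice were above all tTA mice, and the Mbp difference was 1.17 (SE 0.32; adjusted p = 0.663, limma). These values are of its brightest probe set. Of 6 Mbp probe sets, 2 were higher at an unadjusted limma p under 0.05, and the rest did not reach that p. The DN mean of Mbp was 9.47, beside means of 9.76 in rTg4510 and 8.58 in tTA mice. Trf, the transferrin made by oligodendrocytes, differed by 1.77 (SE 0.51) without overlap. Enpp2, or autotaxin, differed by 1.12 (SE 0.53). Oligodendrocyte scores, the mean of the 17 signals after each gene was centered on its mean over the 17 DG arrays, were 0.945 and 1.37 in rTg4510 mice 1 and 4 and between -0.326 and -0.00155 in the other 4. They were -0.775 to -0.105 in tTA and -0.461 to 1.05 in DN mice, so that the DN mice spanned most of the range of the rTg4510 mice. Without rTg4510 mouse 4 the median difference of the list was 0.46, and without mouse 3 it was 0.83. In CA1 and CA3 the same list had median differences of 0.78 and 0.7.

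Of 22 astrocyte markers, 21 lay higher and 1 lower, with a median difference of 0.32, and 0.44 without rTg4510 mouse 3. At an unadjusted p under 0.05, 1 was higher, and 3 without that mouse, when 2.98% of all genes were. Slc1a2, the main glutamate transporter of astrocytes, differed by 0.34 (SE 0.19), Acsbg1 by 0.55 (SE 0.38) and Fabp7, the fatty acid binding protein of radial glia and astrocytes, by 0.94 (SE 0.58). Astrocyte scores were 0.0525 to 0.774 in rTg4510 mice other than mouse 3, which was at -0.359, and -0.257 to 0.308 in tTA mice. The DN mice ranged from -1.05 to 0.657. Gfap, the intermediate filament that marks reactive astrocytes, was read by a pair of probe sets. By the first the Gfap signal was 7.82, 7.61, 6.19, 8.34, 8.9 and 6.8 in rTg4510 mice and 7.23, 6.14, 7.6, 6.59 and 8.31 in tTA mice. The groups overlapped over most of their range, and Gfap differed by 0.43 (SE 0.7), and by 0.15 with the second.

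Of 23 blood vessel markers, 18 lay higher and 5 lower, with a median difference of 0.28. At an unadjusted p under 0.05, 4 were higher, against 2.64% of all genes. Vtn, the pericyte gene for vitronectin, had the largest difference of all genes named, 2.82 (SE 0.9; adjusted p = 0.764, limma). Its signal was 6.45, 6.23, 4.84, 7.47, 4.94 and 7.51 in rTg4510 mice and 4.36, 5.18, 3.26, 2.04 and 2.28 in tTA mice. The groups overlapped through tTA mouse 2, and the DN mean of Vtn was 5.05. Slc2a1, the glucose transporter of the blood-brain barrier, differed by 0.84 (SE 0.25), and by 0.99 without overlap once mouse 3 was left out. Cldn5, the claudin of endothelial tight junctions, differed by 1.0 (SE 0.33) and Cdh5, the endothelial cadherin, by 0.57 (SE 0.21), at mean signals of 3.14 and 2.36 in rTg4510 mice. The vessel score was 0.957 in rTg4510 mouse 4 and -0.28 to 0.352 in the other rTg4510 mice, against -0.222 to -0.0065 in tTA and -0.433 to 0.312 in DN mice. Without rTg4510 mouse 4 the median of the list was 0.03.

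Granule cell markers went the other way in count. Of 11 such markers, 4 lay higher and 7 lower, with a median difference of -0.24, and -0.36 with 2 higher and 9 lower when rTg4510 mouse 3 was left out. All 11 had a mean signal above the medians of the arrays in at least 1 of the genotypes. Prox1, the transcription factor that fixes granule cell identity, was at 6.2, 6.15, 6.77, 4.36, 4.74 and 6.24 in rTg4510 mice and 6.46, 6.21, 5.77, 7.07 and 5.54 in tTA mice. rTg4510 mice 4 and 5 were below the other 9, and the Prox1 difference was -0.46 (SE 0.41). Lct, the lactase gene that marks granule cells in the mouse hippocampus, differed by -0.9 (SE 0.46), and by -1.22 without mouse 3. C1ql3, a secreted synaptic organizer, differed by -0.38 (SE 0.39) and Tdo2, a tryptophan-degrading enzyme of granule cells, by -0.84 (SE 0.64). Tdo2 differed by -0.3 without tTA mouse 4, which was at 7.3, and its DN mean of 2.74 was below the means of both groups. The granule cell score was -1.04 in rTg4510 mouse 4, the mouse with the highest oligodendrocyte, astrocyte and vessel scores, and 0.602 in rTg4510 mouse 3. In the other rTg4510 mice it was -0.341 to -0.0552 and in tTA mice -0.403 to 0.323. Without mouse 4 the median difference of granule cell markers was -0.11. At an unadjusted p under 0.05, 1 of the 11 was lower without mouse 3, against 3.29% of all genes, and 0 with all arrays. A wider list of 16 granule cell identity genes had 7 higher and 9 lower and a median of -0.16. In CA1 and CA3 the 11 markers had median differences of -0.02 and -0.27, and the wider list -0.01 and -0.25. The lower median was thus not particular to the DG. The part of these cell type markers in the differences of single genes was not tested.

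**Figure D4:**
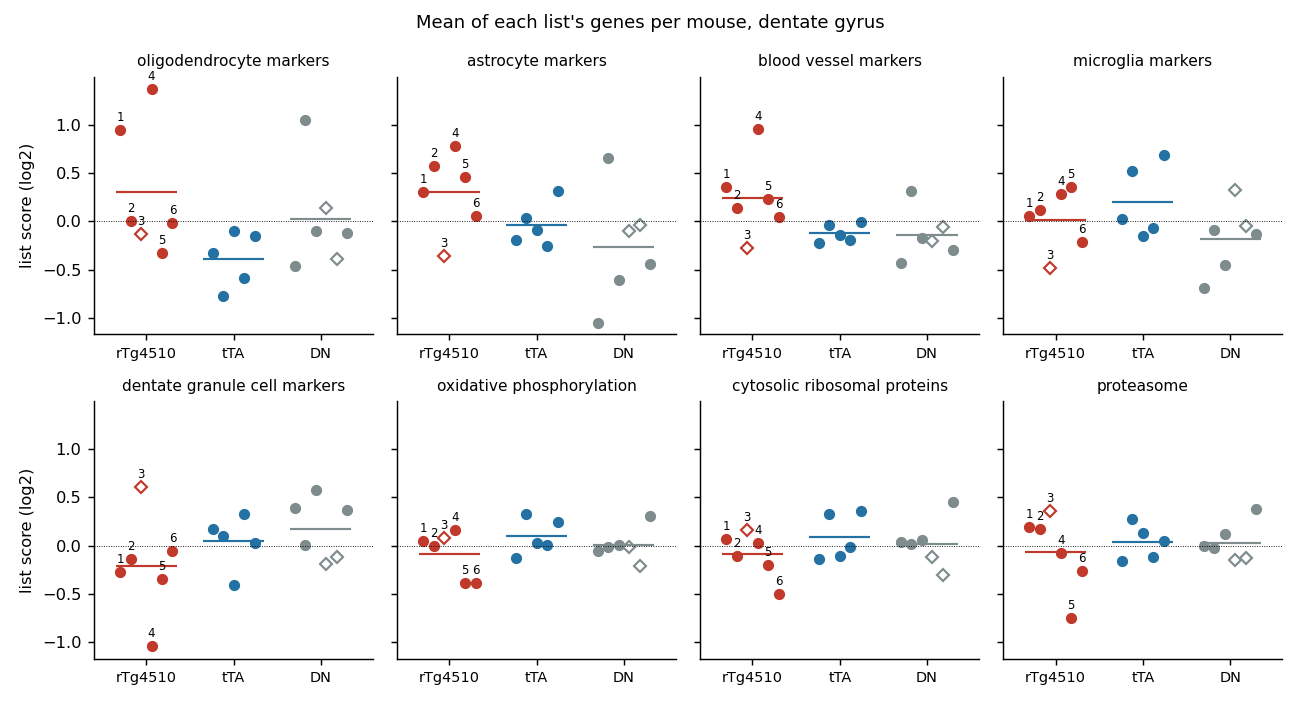
Score of 8 gene lists in each mouse (y axis, log2, the mean of the list's genes after centering each on its mean over 17 DG arrays), by genotype, with group means as lines, mouse numbers beside rTg4510 points, and open diamonds for the arrays whose Prnp signal went against the label. rTg4510 mouse 4 is highest for oligodendrocyte, astrocyte and vessel markers and lowest for granule cell markers, and mouse 5 is lowest for the proteasome.

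More microglia markers lay lower than higher, and complement genes divided nearly evenly. Of 25 microglia markers, 8 lay higher and 17 lower, with a median difference of -0.09, and of 17 complement genes 8 and 9, with a median of -0.1. Tyrobp, the adaptor of Trem2 signaling, was at 5.35, 6.08, 2.78, 5.32, 5.55 and 4.64 in rTg4510 mice and 5.16, 7.2, 4.84, 4.76 and 7.19 in tTA mice, so that mouse 3 was lowest and tTA mice 2 and 5 were highest. The Tyrobp difference was -0.88 (SE 0.59), and -0.44 without mouse 3. C1qb, a chain of the first complement component, differed by -1.54 (SE 0.97) and C4b by -0.43 (SE 0.89). The C1qb signal of rTg4510 mouse 6 was 1.93, against 4.1 to 8.03 in the other rTg4510 mice, and the C1qb difference without it was -0.791. Without tTA mouse 5 the medians were 0.00192 for the microglia list and 0.0229 for the complement list, and C4b differed by 0.0576. Ly86 differed by -1.09 (SE 0.49) and Selplg by 0.31 (SE 0.14). Both Trem2 probe sets were at or below 2.62 on all 11 arrays, and Spp1, or osteopontin, was at or below 1.5, among the lowest signals. In CA1 and CA3, Tyrobp differed by 1.43 and 0.62, Gfap by 2.23 and 1.59 with the first probe set, and C4b by 1.29 and 0.14, and the median of the microglia list was 0.39 and 0.17.

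Whether the DG differed from the other subfields was tested within mice, on each mouse's DG signal minus the mean of its CA1 and CA3 signals. By limma, 0 of 22626 probe sets passed (0%), with a smallest adjusted p of 0.746, and 1398 had an unadjusted p under 0.05. When rTg4510 mouse 3 was left out, limma again called 0, with a smallest adjusted p of 0.387 and 1607 at an unadjusted p under 0.05. The difference of differences was -1.9 (SE 0.67; adjusted p = 0.746) for Tyrobp, -1.48 (SE 0.87; adjusted p = 0.842) for the first Gfap probe set and -1.15 (SE 0.77) for C4b. For the dimmer Prnp probe set it was -0.57 (SE 0.49), with differences of 2.2 in CA1 and 1.97 in CA3. The 5 probe sets with the smallest p were of Zfp109 (1.52), Mcm9, a DNA helicase (-1.07), Osmr, the oncostatin M receptor (-1.53), Rfx1, a transcription factor (0.78), and a probe set with no single gene symbol (0.98). Osmr was 1.3 to 1.97 in rTg4510 and 2.05 to 5.0 in tTA mice, where tTA mouse 5 alone was above 3.17.

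Genes of protein synthesis and energy supply were lower in count. Of 71 cytosolic ribosomal protein genes, 14 lay higher and 57 lower, with a median difference of -0.14. Of 78 genes of oxidative phosphorylation, 18 lay higher and 60 lower, with a median of -0.16, and of 36 proteasome genes 11 and 25, with a median of -0.16. At an unadjusted p under 0.05, 6 genes of oxidative phosphorylation, 3 of the ribosome and 1 of the proteasome were lower, against 2.83% of all genes. Ndufa11, an accessory subunit of complex I, was at 7.33, 7.42, 7.8, 7.64, 6.92 and 8.13 in rTg4510 mice and 7.92, 8.5, 8.13, 8.39 and 8.79 in tTA mice. Mouse 6 alone reached the tTA range, and the Ndufa11 difference was -0.8 (SE 0.2; adjusted p = 0.576, limma). Uqcr10 of complex III differed by -0.74 (SE 0.29), Atp5l of the ATP synthase by -0.67 (SE 0.25), Ndufb2 by -0.62 (SE 0.26) and the ribosomal Rpl35a by -0.61 (SE 0.24). Psmc4, an ATPase at the base of the proteasome cap, differed by -0.59 (SE 0.26), whereas Psmb8, the immunoproteasome subunit, differed by 0.55 (SE 0.2) at signals of at most 2.47. The scores of rTg4510 mice 5 and 6 were -0.382 and -0.39 for oxidative phosphorylation, against -0.129 to 0.322 in tTA mice, and the other 4 rTg4510 mice lay between -0.00571 and 0.159. For ribosomal proteins, mouse 6 was lowest at -0.5, and without it the median of that list was -0.06. The proteasome score was -0.747 in rTg4510 mouse 5, and without this mouse the median of the list was -0.01. In CA1 and CA3 the medians were 0.14 and 0.17 for ribosomal proteins and 0.01 and 0.14 for oxidative phosphorylation.

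Measures of RNA quality were also compared between the genotypes. The control probe sets for the 3′ and 5′ ends of Gapdh differ more where RNA is degraded or amplification is cut short. The 3′ minus 5′ signal of Gapdh was 2.94 ± 0.417 (SD, n = 6) for rTg4510 and 2.49 ± 0.198 (SD, n = 5) for tTA, so that rTg4510 lay 0.456 higher (two-sided exact permutation p = 0.0476 over 462 splits, 0.0952 adjusted over both control genes). The all-array difference did not pass after adjustment. It was 0.546 without rTg4510 mouse 3 (exact permutation p = 0.0238, adjusted 0.0476). rTg4510 mouse 5 had the highest value, 3.625, and also the lowest correlation with the mean profile of the other DG arrays, 0.925, against 0.952 to 0.983 in the other 10 compared. For Actb the 3′ minus 5′ signal was -0.676 ± 0.123 (SD, n = 6) and -0.51 ± 0.172 (SD, n = 5), which differed by -0.166 in the opposite direction (exact permutation p = 0.0996, adjusted 0.0996). With the Gapdh value as a covariate, limma again called 0 probe sets. List medians were also fitted with this covariate, and those that moved most are given in the closing section. Among named genes, Pdgfc was 0.687, Lrp4 0.479, Fgf1 0.556 and Gabrb2 -0.457 with it, all smaller in size than without. Others were larger in size, such as Clcc1 at 2.2, Cdkn1a at 2.46 and Cttn at -2.06. Whether RNA quality caused any of the differences was not tested.

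Synapse genes divided nearly evenly, while more channel genes lay higher than lower. Over all 11962 genes, 5956 lay higher and 6006 lower. Of 37 synapse genes, 21 lay higher and 16 lower, with a median of 0.11, and of 40 channel genes 28 and 12, with a median of 0.14. Of these, 4 synapse and 2 channel genes were higher and 1 synapse gene lower at an unadjusted p under 0.05. Of all genes, 2.64% were higher and 2.83% lower at that p. Bsn, a scaffold of the presynaptic active zone, differed by 0.76 (SE 0.3), Stx1a, a syntaxin of vesicle fusion, by 0.98 (SE 0.39) and Napg by 0.35 (SE 0.13), while Rab3a, a GTPase of synaptic vesicles, differed by -0.37 (SE 0.14). tTA mouse 5 was the lowest tTA mouse for Bsn, at 6.7 against 7.5 to 8.84, and without it the median of the synapse list was -0.00175. Among channels, Kcnc1, a fast potassium channel, differed by 1.05 (SE 0.43). Of 21 glutamate and GABA receptor genes, 11 lay higher and 10 lower. Gabrb2, a subunit of GABA-A receptors, was at 3.92, 4.72, 4.86, 4.04, 2.88 and 4.36 in rTg4510 mice and 5.11, 4.96, 3.99, 5.67 and 6.16 in tTA mice, overlapping through tTA mouse 3. Its difference was -1.05 (SE 0.4), whereas that of Gabra2 was 0.39 (SE 0.16). The postsynaptic scaffold Dlg4 differed by -0.03 (SE 0.28) by its brighter probe set.

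Genes induced by neuronal activity divided evenly. Of 28 such genes, 14 lay higher and 14 lower, with a median of -0.01. Arc, an immediate early gene of synaptic plasticity, ranged from 2.73 to 4.75 in rTg4510 and from 2.82 to 4.4 in tTA mice, with a difference of -0.06 (SE 0.34). Per1, which is both clock-controlled and cAMP-responsive, had the largest difference of the list, 1.31 (SE 0.53), with signals of 5.21, 5.38, 5.17, 3.97, 4.1 and 3.36 in rTg4510 mice and 4.4, 2.48, 4.56, 1.62 and 3.03 in tTA mice. The Per1 groups overlapped and the DN mean was 5.0. Homer2 differed by -0.16 (SE 0.34). Among 26 neuropeptides and secreted factors, 13 lay higher and 13 lower. Npy, the peptide that hilar interneurons make and that granule cells express after seizures, was at 6.12, 5.4, 5.25, 6.11, 5.79 and 6.31 in rTg4510 mice and 5.45, 5.93, 5.35, 6.45 and 6.32 in tTA mice. Both groups covered the same range, and the Npy difference was -0.07 (SE 0.29). Penk, the enkephalin precursor, differed by 1.53 (SE 0.88) and was highest in rTg4510 mice 3 and 5, at 7.17 and 5.84, against 2.44 to 4.59 in the other 4 and 2.03 to 4.28 in tTA mice. The Penk difference was 1.01 without rTg4510 mouse 3, and the DN mean, 6.02, was above the means of both groups. Fgf1 differed by 0.98 (SE 0.33), and by 1.17 without overlap when rTg4510 mouse 3 was left out. Of 22 inhibitory interneuron markers, 9 lay higher and 13 lower, with a median of -0.1, and Gad2, a GABA-synthesizing enzyme, differed by 0.35 (SE 0.35).

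For newborn neurons, 12 of 22 genes lay higher and 10 lower, with a median of 0.03. Dcx, or doublecortin, the microtubule protein of migrating and immature neurons, was at 4.78, 5.63, 4.3, 4.23, 3.8 and 5.77 in rTg4510 mice and 5.61, 5.14, 6.28, 6.05 and 5.78 in tTA mice. rTg4510 mice 1, 3, 4 and 5 were below all tTA mice, and the Dcx difference was -1.02 (SE 0.39; adjusted p = 0.804, limma), but the DN mean was 4.69. Tubb3, the neuronal beta-tubulin, differed in the other direction, by 0.64 (SE 0.26), and Hopx, a marker of neural stem cells and astrocytes, by 0.64 (SE 0.36). Calb2, or calretinin, of young granule cells, mossy cells and interneurons, differed by 1.41 (SE 1.02).

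Of 43 genes of tau, its kinases and microtubules, 25 lay higher and 18 lower, with a median of 0.07. Cdk5r2, an activator of the tau kinase Cdk5, differed by 0.32 (SE 0.13) and Map1b by 0.42 (SE 0.2). Of 41 lysosome and autophagy genes, 26 lay higher and 15 lower, with a median of 0.07. The lysosomal protease gene Ctsa was at 5.38, 5.72, 4.76, 4.78, 6.58 and 4.23 in rTg4510 mice and 4.14, 3.74, 4.02, 3.51 and 4.55 in tTA mice. Only rTg4510 mouse 6 fell within the tTA range, and the Ctsa difference was 1.25 (SE 0.33; adjusted p = 0.591, limma). Ctsd and Ctsl, cathepsins of the same compartment, differed by 0.57 (SE 0.2) and 0.72 (SE 0.24), and Map1lc3a, a protein of autophagosome membranes, by 0.87 (SE 0.36). The list of unfolded protein and stress response genes had 17 higher and 12 lower of 29. In it, Cdkn1a, the p53-induced cell cycle inhibitor p21, was at 2.47, 5.05, 3.53, 5.68, 2.7 and 3.68 in rTg4510 mice and 1.92 to 2.52 in tTA mice. All but mouse 1 of the rTg4510 mice were above every tTA mouse, with a Cdkn1a difference of 1.7 (SE 0.49; adjusted p = 0.673, limma). Chac1, a target of the stress factor Atf4, differed by -0.57 (SE 0.18) at signals of at most 2.24.

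Of 26 heat shock genes, 15 lay higher and 11 lower, and 9 and 17 without rTg4510 mouse 3, so that the direction of this list turned with 1 mouse. Medians were 0.02 and -0.06. Of 19 genes of cholesterol synthesis, 9 lay higher and 10 lower, with a median of -0.03. Cyp51, a lanosterol demethylase, differed by 1.11 (SE 0.47), for which tTA mouse 4 was at 3.08 and all others were between 5.67 and 7.38. Of 31 interferon and MHC genes, 17 lay higher and 14 lower, with a median of 0.01, and 21 of these had mean signals below the medians of the arrays in both genotypes. Lists of hilar mossy cells, choroid plexus, oligodendrocyte precursors and CA1 and CA3 pyramidal cells held 6, 8, 5 and 13 measured genes and had medians of 0.22, 0.22, 0.31 and -0.02. Of the 16 genes the study names for inflammation, synapses and interneurons, 6 lay higher and 10 lower, with a median of -0.06. The study named these with its own samples in view, so that the list is no independent evidence.

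**Figure D5:**
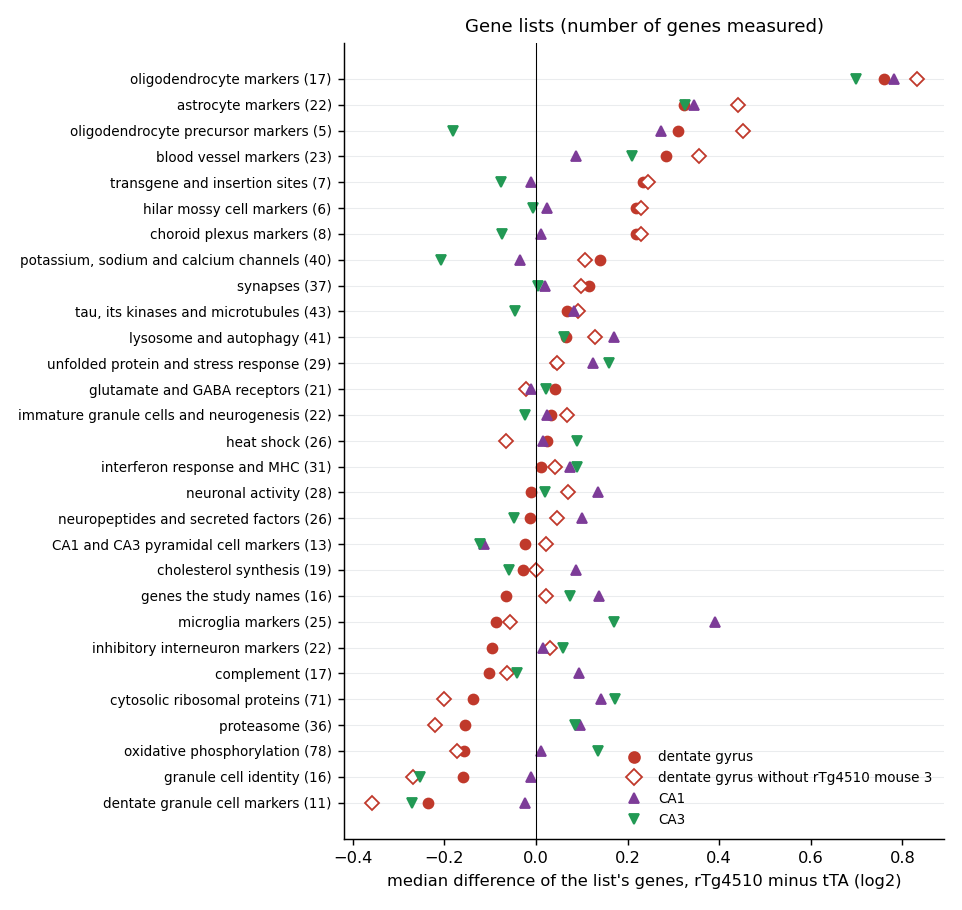
Median difference between rTg4510 and tTA mice over the measured genes of each list (x axis, log2; number of genes in parentheses), in the DG with all arrays, in the DG without rTg4510 mouse 3, in CA1 and in CA3. Oligodendrocyte and astrocyte markers lie to the right in all 3 subfields, at 0.76 and 0.32 in the DG. Of the lists in the DG, that of granule cell markers lies lowest, at -0.24, beside -0.27 in CA3.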

How the data were processed

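Gene expression was measured in laser-captured hippocampal subfields of 17 mice, 1 array per mouse and subfield. The authors isolated RNA, amplified it and deposited 1 table of log2 signals, summarized per probe set by RMA according to the submitters' processing notes. The version of RMA and the set of arrays normalized together are not given in the sources used here, and the methods speak of signals taken out of the log scale, whereas the deposited values are log2. Of 22716 probe sets, 90 controls were left out. The platform table gave 1 symbol to 18003 probe sets, several to 287 and none to 4336, and 332 were named from the study's supplementary probe annotation. A gene of a list was read by its brightest probe set.

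Differences were tested with limma 3.58.1 in R 4.3.3 (lmFit and eBayes, Benjamini-Hochberg adjustment over 22626 probe sets, threshold 0.05), with 1 mean per genotype over the 17 DG arrays. The scripts were tested on simulated data. The precision is limited by the 5 or 6 mice per genotype, and nothing was pooled. The difference between the DG and CA1 and CA3 was fitted on differences within mice, since all 3 arrays come from the same mouse by its label. Named were the 12 higher and 12 lower probe sets with 1 symbol, the smallest p and a mean signal above the highest array median. The mean of rTg4510 or of tTA mice had to exceed it, so that a probe set could pass through the genotype where it was higher. Also named were 8 and 8 without rTg4510 mouse 3, the transgene and insertion genes, the genes the study names, up to 4 genes of each other list by p, the 5 probe sets with the smallest p for another difference in the DG, and Xist. The genes with several agreeing probe sets, and Kdm6a, were chosen after their values were seen. Some genes that the rule names are counted in their lists but not reported here by name. The members and lists were chosen with earlier results of these data known. Alternatives were the arrays fitted, Fisher's LSD on log2 and linear signals, weights per array, a prior that follows intensity, a filter on mean signal at percentile 40, centering, quantile normalization, the Gapdh measure as a covariate, the mouse as a block, and leaving out each mouse. Plots were made in Python 3.11.15 (matplotlib 3.10.9).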

Additional observations from a re-analysis of the deposited data

Results flagged for a closer look

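In 14 of 276 groups of mice and genes or lists, 1 mouse lay farther from the rest than the critical value of Dixon's test allows. Chance flags about 1 in 20 such groups. rTg4510 mouse 3 was the one that stood apart for Prnp (7.34 and 9.07 by its probe sets, lowest), Xist (2.5, lowest), Suz12 (7.49, highest) and Prdx4 (1.52, lowest), and for the score of the genes the study names (-0.468, lowest). rTg4510 mouse 5 was lowest for Rapgef3 by its dimmer named probe set, at 4, and for the heat shock score, at -0.459. rTg4510 mouse 1 was lowest for Ugcg, at 6.29, and rTg4510 mouse 6 was highest for the score of transgene and insertion genes, at 0.303. Among tTA mice, mouse 2 was highest for Fgf14, at 8.45, and for Lrp4, at 2.97, and mouse 4 was lowest for Cyp51, at 3.08, and highest for Psmc4, at 8.93.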

How the results depend on the processing

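The count of 0 probe sets held under each alternative run, with a smallest adjusted p of 0.133 to 0.874 in limma and Fisher's LSD, apart from the fit without the 3 arrays whose Prnp went against the label, which called 2, both of Prnp (1.95, adjusted p = 0.000155, and 0.941, adjusted p = 0.038). Those arrays were chosen by Prnp, so that this is a description. Without rTg4510 mouse 3, fitting rTg4510 and tTA arrays alone called 1, the dimmer Prnp probe set (adjusted p = 0.00343), and leaving out each further mouse called 0 to 1, the 1 being Kdm6a (-1.76, adjusted p = 0.0126, limma) without rTg4510 mouse 6. With the mouse as a random block over 51 arrays, 0 were called, with or without mouse 3. For the DG against CA1 and CA3, the fit with no replicate block, which ignores the pairing within mice, also called 0, with 1312 unadjusted. Prnp ranged from 1.36 to 1.95 by the dimmer probe set and from 0.624 to 0.941 by the brighter when each mouse was left out, and was 0.963 and 0.408 with the Gapdh covariate. The Gapdh difference ranged from 0.32 to 0.546 (exact permutation p 0.0238 to 0.119) and passed 0.05 unadjusted in 3 of 11 such fits. That of Actb ranged from -0.229 to -0.111 (exact permutation p 0.0143 to 0.219).

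Of 3063 values of single genes under alternatives, 46 turned in direction, in 12 probe sets. Leaving out each mouse, Arc ranged from -0.278 to 0.126, C4b from -0.821 to 0.0576, Dlg4 from -0.139 to 0.162, Gfap by its second probe set from -0.0192 to 0.45, Homer2 from -0.349 to 0.02, Ncapg2 from -0.149 to 0.0402, Npy from -0.209 to 0.0653, Trem2 from -0.129 to 0.158 and from -0.174 to 0.00758, Vipr2 from -0.088 to 0.0184 and Xist from -1.43 to 0.0902. Without rTg4510 mouse 3, or without all 3 arrays, Arc was 0.0224, Homer2 0.02, Ncapg2 0.0402, Npy 0.0442 and Xist 0.0902. With the Gapdh covariate, Dlg4 was 0.284, Gfap -0.245 and -0.606, Ncapg2 0.0799 and Trem2 -0.0336. Array weights gave Dlg4 0.0885 and Npy 0.0545, and linear LSD gave Dlg4 0.0728. Of 435 list medians, 3 moved by more than 1 SD of the list's score between mice: transgene and insertion genes to 0.0384 without rTg4510 mouse 6, neuronal activity to -0.207 with the Gapdh covariate, and oligodendrocyte precursors to -0.309 with all named probe sets. Smaller moves could still be large against the median itself, as for blood vessel markers (0.0328 to 0.371 when each mouse was left out), synapses (-0.00175 to 0.162), the proteasome (-0.235 to -0.0099) and heat shock (-0.0649 to 0.106). Single genes that 1 mouse moved by over 1.5 times included Gad2 (0.0617 without tTA mouse 4), Cyp51 (0.531 without tTA mouse 4), Prox1 (-0.184 without rTg4510 mouse 4), Calb2 (0.833 without rTg4510 mouse 4), Osmr (-0.646 without tTA mouse 5) and Bsn (0.437 without tTA mouse 5). The causes were not tested.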
